A study of Mus musculus with 24 samples.

Results

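The comparison described here is between untreated Lkb1-/- and wild-type mouse embryonic fibroblasts (MEFs), which asks how loss of the kinase LKB1 (gene Stk11) alters the baseline transcriptome before any inflammatory stimulus. The samples were taken by their labels: all 3 libraries of untreated Stk11-/- cells and all 3 libraries of untreated wild-type cells, 6 of the 24 libraries of the series. The remaining libraries came from the same lines given IL-1β for 6 h and from 2 LKB1/CRTC2 double-knockout clones (A1 and A2), untreated or given IL-1β. They entered the filter on low counts, the scaling and the estimate of the spread between replicates. Both MEF types are established 3T3 lines, that is, cultures immortalized by serial passage, grown in medium with serum. How Stk11 was deleted is not given in the sources used here, and each genotype is represented by a single line, so the effect of Stk11 and any other difference between the lines cannot be told apart. The labels give a replicate number and nothing on separate cultures, so the p-values measure only the spread between these libraries, which may be technical.

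LKB1 is a serine/threonine kinase that works in a complex with a STRAD pseudokinase and the scaffold protein MO25 (genes Cab39 and Cab39l). It phosphorylates AMP-activated protein kinase (AMPK) and a family of AMPK-related kinases, among them the salt-inducible kinases (SIKs), which hold CRTC coactivators of the transcription factor CREB in the cytoplasm. Fibroblasts are the cells that lay down and remodel the extracellular matrix, and they keep a record of their position in the embryo in their Hox genes.

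Each library held between 40011408 and 46677840 read pairs counted on genes, with 95.69% to 95.93% of strand-assigned counts on the strand used. Levels are given as CPM, the usual depth-scaled count, on libraries scaled by the trimmed mean of M-values (TMM), in the order wild type then Lkb1-/- and as mean ± SD of 3 libraries unless each library is listed in replicate order. Differences are log2 fold changes of Lkb1-/- over wild type ± SE, fitted with edgeR. A gene counted as called when the quasi-likelihood p-value, adjusted over all genes tested by the Benjamini-Hochberg procedure (FDR), was under 0.05. The first library of each line stood apart from the other two. Chi-square per degree of freedom was 61.94 and 46.37 for wild-type library 1 against libraries 2 and 3 and 13.8 between libraries 2 and 3, and 53.31, 57.11 and 9.18 for the same pairs of Lkb1-/- libraries.

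Stk11 itself (chr10:80115803-80130682 in GRCm38) read 84.6, 85.5 and 87.9 CPM in wild-type and 18.7, 17.0 and 16.3 CPM in Lkb1-/- libraries. The groups did not overlap, and the log2 fold change was -2.31 ± 0.07 (FDR = 1.06e-16). The Lkb1-/- libraries still held 686 to 827 counts on Stk11, and counts per gene do not show which exons they came from. The other 4 genes of the complex were all lower as well, by smaller amounts. The MO25 gene Cab39l stood at 74.9 ± 3.73 against 40.9 ± 0.664 CPM (-0.87 ± 0.09) and Cab39 at 175 ± 3.20 against 133 ± 3.10 CPM (-0.40 ± 0.10), and the pseudokinase genes Strada and Stradb differed by -0.25 ± 0.08 and -0.23 ± 0.09. With wild-type library 2 left out, 3 of the 5 were called lower, Strada and Stradb then differing by -0.19 and -0.22. Stk11 lies on chromosome 10, where the median log2 fold change of all 814 genes tested was -0.44. Medians of single autosomes ran from there to 0.40 on chromosome 15. Differences the size of those of Cab39, Strada and Stradb were thus not particular to the complex.

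The list of AMPK subunits and AMPK-related kinases downstream of LKB1 had 18 members tested, of which 5 were higher and 9 lower. Nuak2, Nuak1 and Snrk, AMPK-related kinases linked to cell adhesion and contractility (NUAKs) and to metabolism (SNRK), fell furthest. Nuak2 read 20.6, 23.6 and 21.5 CPM in wild-type and 7.83, 7.52 and 7.21 CPM in Lkb1-/- libraries (-1.54 ± 0.13), and Nuak1 (-1.36 ± 0.16) and Snrk (-1.35 ± 0.17) fell by similar amounts. The catalytic AMPK gene Prkaa2 was lower (-0.40 ± 0.12) and the regulatory subunit gene Prkag1 higher (51.5 ± 2.37 against 95.1 ± 5.06 CPM, 0.89 ± 0.07). The 3 SIK genes did not move together, since Sik1 read 21.9, 20.1 and 23.6 CPM in wild-type and 44.3, 45.1 and 46.6 CPM in Lkb1-/- libraries (1.05 ± 0.14), whereas Sik2 and Sik3 differed by -0.32 ± 0.10 and -0.43 ± 0.07. Brsk1 was higher (7.15 ± 0.403 against 20.2 ± 1.23 CPM, 1.496 ± 0.10), and Mark1, a microtubule-affinity regulating kinase, had no count in any wild-type library and 0.996, 0.626 and 1.19 CPM in the Lkb1-/- libraries.

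Across all 17522 genes tested, 9798 were called, or 55.9%, with 5279 higher (30.1%) and 4519 lower (25.8%) in Lkb1-/- MEFs. Which direction held more genes depended on the processing, since 4703 were higher and 5117 lower without strand, 4713 and 4805 without Lkb1-/- library 1, 4577 and 4710 without Lkb1-/- library 3, and 4683 and 4840 without wild-type library 3. The 2 groups of 3 libraries did not overlap in 11359 genes (64.8%). Counts over gene lists below are to be read against these shares and those of protein-coding genes, which make up most of the lists. List medians are to be read against the median of all genes. Large differences were mostly increases. Among the called genes, 1278 were higher and 298 lower by more than 3 on the log2 scale, and 756 higher and 127 lower by more than 5, although the median over all genes was only 0.0414. Protein-coding genes were called in 66.0% and long noncoding genes in 40.5% of those tested. Of the 13041 protein-coding genes tested, 4556 were higher and 4046 lower. Both shares lie above those over all genes.

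Among genes above 3 log2 CPM on average over the 6 libraries, many of the largest increases were in the extracellular matrix and its remodelling. That limit leaves out genes near 0 in wild type that rose further than most of these, such as Grem1 below. Genes at the detection limit in wild type were left out too. The gelatinase gene Mmp2 read 0.0447, 0.138 and 0.104 CPM in wild-type and 370.1, 469.6 and 567 CPM in Lkb1-/- libraries (12.23 ± 0.53), and versican (Vcan), a large chondroitin sulphate proteoglycan, read 1.52, 1.70 and 1.67 CPM in wild-type and 1307, 1730 and 1661 CPM in Lkb1-/- libraries (9.91 ± 0.35). Neither gene overlapped between the groups, and the small leucine-rich proteoglycans decorin (Dcn, 9.04 ± 0.46) and biglycan (Bgn, 8.48 ± 0.24) showed the same near-absence in wild-type cells. Bgn went from 2.499 ± 0.934 to 894 ± 40.0 CPM. Collagen VI subunit genes Col6a1 (8.58 ± 0.33) and Col6a2 (9.13 ± 0.33), the cyclooxygenase-1 gene Ptgs1 (7.36 ± 0.21), the protease inhibitor Serpine2 (7.35 ± 0.22) and the epithelial growth factor Fgf7 (7.18 ± 0.20) were also among the 10 largest for genes above 3 log2 CPM.

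The 10 largest decreases were taken by the same limit on the mean level of the 6 libraries, so genes near 0 in Lkb1-/- cells that fell further, such as Nid2 below, are not among them. The transcription factor gene Zfhx4 read 129, 144 and 134 CPM in wild-type and 0.498, 0.743 and 0.643 CPM in Lkb1-/- libraries (-7.75 ± 0.17), and the GDP-dissociation inhibitor Arhgdib (-5.66 ± 0.19), the small heat-shock protein Cryab (-5.24 ± 0.26) and the secreted glycoprotein Lgals3bp (-5.19 ± 0.44) followed. Connective tissue growth factor (Ccn2), a matricellular protein induced by YAP/TAZ and TGF-β, read 281, 283 and 219.7 CPM in wild-type and 9.35, 6.43 and 5.98 CPM in Lkb1-/- libraries (-5.17 ± 0.26). Smooth muscle actin (Acta2), the contractile marker of myofibroblasts, read 434, 727 and 476 CPM in wild-type and 16.6, 19.6 and 11.4 CPM in Lkb1-/- libraries (-5.11 ± 0.32), with its highest wild-type level in library 2. Tcp11l1 (-5.11 ± 0.37), the B cell adaptor Blnk (-5.06 ± 0.32), the phosphatase Ppm1e (-4.24 ± 0.12) and mesothelin (Msln, -4.16 ± 0.39) were the others.

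A separate set of genes was present in one line and at the detection limit in the other, taken as at most 3 counts in each library (about 0.0714 CPM) against at least 1 CPM in each library of the other line. There were 282 such genes present in Lkb1-/- MEFs only and 26 present in wild-type MEFs only. Those with the highest levels in Lkb1-/- MEFs were the cyclic nucleotide phosphodiesterase Pde3b at 215, 267 and 292 CPM, against at most 1 count in any wild-type library, and Armcx2 at 174, 194 and 201 CPM. They also included the scavenging CXCL12 receptor Ackr3 at 118, 148 and 181 CPM, the neuronal microtubule regulator Stmn2 at 126, 151 and 168 CPM, the cartilage proteoglycan aggrecan (Acan) at 97.8, 73.4 and 69.5 CPM and a second phosphodiesterase, Pde10a, at 48.1, 54.5 and 56.7 CPM. Pde10a had no count in any wild-type library, which makes it at least 744-fold higher when 3 counts per library stand in for 0.

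The genes seen in wild-type cells only were led by Hoxd13, a transcription factor of the distal limb bud, at 265, 289 and 294 CPM and no count in any Lkb1-/- library, a fall of at least 4056-fold. Dusp9, a phosphatase of ERK kinases, stood at 29.4, 21.2 and 24.5 CPM and Tmem47 at 19.2, 21.9 and 19.7 CPM, both with no count in Lkb1-/- cells. The glucosamine-6-phosphate deaminase Gnpda2 (14.1, 15.4 and 15.9 CPM) was at 0 there too. Klf12 (20.2, 24.4 and 27.1 CPM), the endoderm and mesoderm factor Gata6 (15.5, 16.0 and 15.9 CPM), Fgfbp1 (14.4, 9.90 and 11.2 CPM) and asporin (Aspn, 5.16, 15.2 and 10.4 CPM) had at most 2 counts in any Lkb1-/- library.

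Some of these genes were neighbours. In the HoxD cluster on chromosome 2, Hoxd11 (13.5, 15.1 and 17.7 CPM), Hoxd10 (7.37, 8.15 and 8.71 CPM), Hoxd8 (9.07, 8.93 and 7.90 CPM), Hoxd9 (0.402, 0.599 and 0.704 CPM) and Hoxd4 (0.268, 0.207 and 0.391 CPM) were counted in all 3 wild-type libraries and in no Lkb1-/- library, and Evx2, beside Hoxd13, went from 6.90, 7.48 and 8.01 CPM to 0. The genes that flank the cluster were present in both lines. Lnpk, next to Evx2, read 74.5, 69.0 and 71.4 CPM in wild-type and 44.7, 47.4 and 48.6 CPM in Lkb1-/- libraries (-0.61 ± 0.05), and Mtx2, on the other side, read 54.9, 51.3 and 51.8 CPM in wild-type and 56.0, 55.6 and 59.8 CPM in Lkb1-/- libraries (0.12 ± 0.06, FDR = 0.0919). The HoxA cluster on chromosome 6 was expressed in both lines at closer levels, with Hoxa13 at 39.5 ± 3.79 against 78.9 ± 10.7 CPM (1.00 ± 0.18). Hoxa9 (0.05 ± 0.09, FDR = 0.677) was not called, Hoxa7 was lower (-1.68 ± 0.11), and Hoxa4 (1.30 ± 0.15) and Hoxa11 (0.96 ± 0.11) were higher. No HoxB or HoxC gene passed the filter on low counts.

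Of the 26 genes seen in wild-type MEFs only, Xlr3b, Dusp9, Tmem47 and Cldn34c1 lie on the X chromosome, so X-linked genes were found in both sets. Of the 282 genes seen in Lkb1-/- MEFs only, 27 lie on the X chromosome (9.57%, against 3.03% of all genes tested), and 5 of these are neighbours of the armadillo-repeat Armcx family. Armcx1 read 15.3, 18.2 and 20.4 CPM, Armcx4 46.6, 48.9 and 50.2 CPM and Armcx6 3.49, 3.29 and 3.45 CPM in Lkb1-/- libraries with no count in wild type, and Armcx2 and Armcx3 had at most 3 counts in any wild-type library. Armcx5, of the same family, was present in both lines at 6.81 ± 0.880 against 11.0 ± 0.741 CPM (0.69 ± 0.10). The flanking genes of HoxD and the Armcx family were looked up after the lists of on and off genes were seen. The 4 Y-linked genes Ddx3y, Kdm5d, Eif2s3y and Uty were all among the genes seen in Lkb1-/- MEFs only. Uty, a histone demethylase gene, read 62.1, 65.9 and 73.2 CPM in Lkb1-/- and no count in wild-type libraries, and Ddx3y had at most 1 count in a wild-type library against 86.7, 88.5 and 94.6 CPM. Xist, the RNA of the inactive X chromosome, was at 0.0300 ± 0.0340 against 0.0159 ± 0.0275 CPM and was not tested. The 2 lines thus differed in Y-linked transcripts as well as in Stk11.

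**Figure D1:**
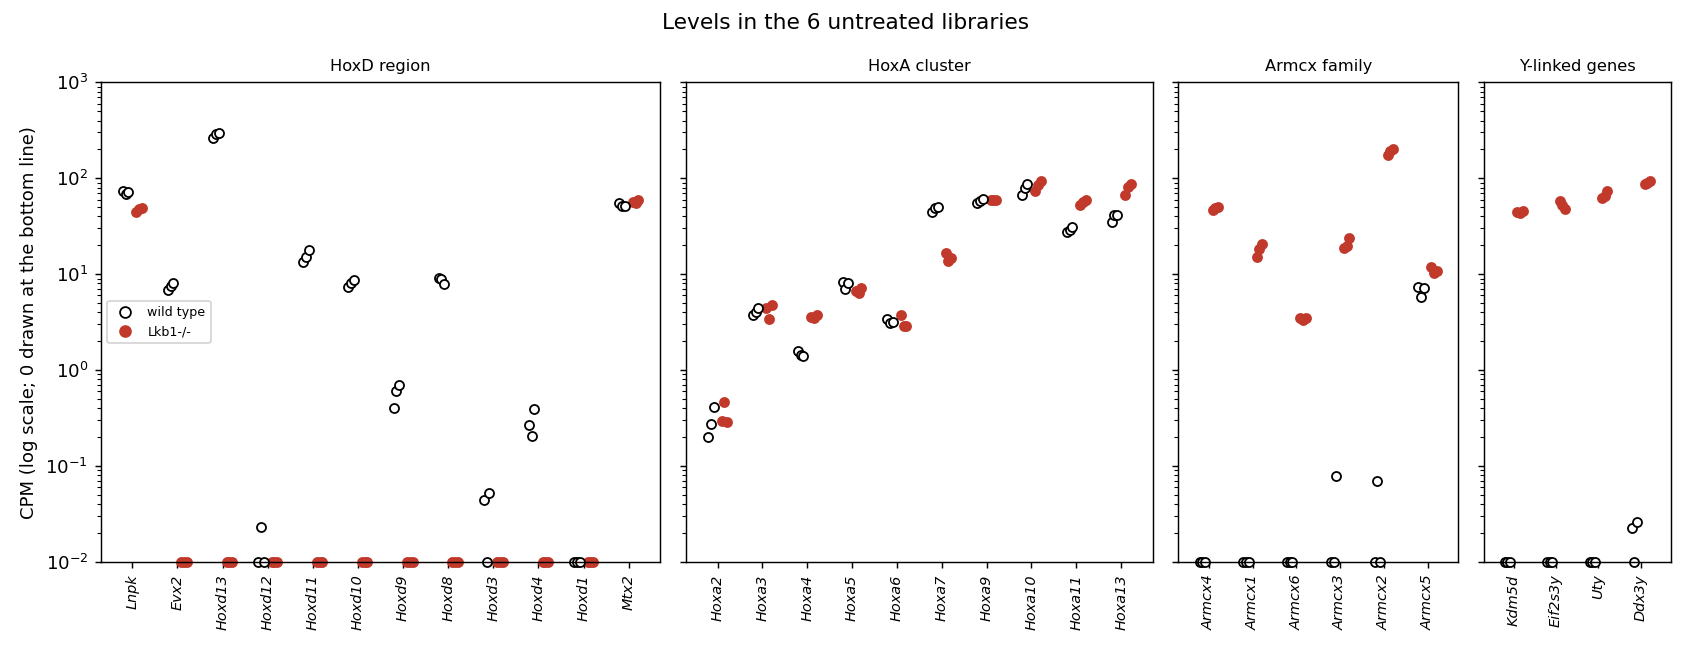
Levels of the HoxD, HoxA, Armcx and Y-linked genes in the 6 untreated libraries. The vertical axis is CPM on a log scale with libraries at 0 drawn on the bottom line, open circles are the 3 wild-type and filled circles the 3 Lkb1-/- libraries, and genes run in chromosome order within each panel. The HoxD genes and Evx2 lie on the bottom line in every Lkb1-/- library while Lnpk and Mtx2 do not, and the reverse holds for Armcx1, Armcx4 and Armcx6.

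The levels of these genes were also read in the libraries that did not choose them. Those libraries entered the fit through the low-count filter, the scaling and the estimate of spread. With IL-1β, 207 of the 282 genes and 19 of the 26 met the same limits. The double-knockout clones were grown from single Lkb1-/- cells after CRISPR/Cas9 deletion of Crtc2, so they descend from the same line and are not an independent knockout. In the untreated libraries of both clones, 196 of the 282 were at 1 CPM or more in every library and 15 of the 26 at no more than 3 counts. Hoxd13 had no count in either clone, and Armcx2 averaged 178 CPM in A1 and 153 CPM in A2. Slit3, an axon guidance ligand also expressed by stromal cells, went from 47.9, 65.1 and 56.9 CPM in Lkb1-/- libraries to 4.17 ± 1.04 CPM in A1 and 6.20 ± 1.17 CPM in A2.

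The labelled cell type was checked against markers of fibroblasts and of other lineages. Vimentin (Vim, 3208 ± 155 against 2462 ± 54.6 CPM) and collagen I (Col1a1, 2378 ± 482 against 1485 ± 209 CPM) were at high levels in both lines. The surface marker Thy1 had at most 2 counts and the proteoglycan lumican (Lum) at most 1 count in any library, so these 2 fibroblast markers were at or near 0 in both lines. Pdgfra, the PDGF receptor of mesenchymal progenitors, read 3.71, 5.66 and 4.36 CPM in wild-type and 276, 346 and 403 CPM in Lkb1-/- libraries (6.22 ± 0.32). Of markers of other lineages, Krt5 and Krt14 (epithelial), Cdh5 and Pecam1 (endothelial), Ptprc and Adgre1 (haematopoietic), Snap25 and Sox10 (neuronal and Schwann) and Myod1 and Myog (skeletal muscle) had at most 7 counts in any library. The epithelial list summed to 2.99, 2.21 and 3.23 CPM in wild-type and 0.996, 0.766 and 1.26 CPM in Lkb1-/- libraries, the endothelial list to 0.603, 0.552 and 0.835 and 3.01, 2.95 and 2.57 CPM, and the haematopoietic list to 4.04, 2.49 and 3.62 and 5.93, 4.99 and 4.36 CPM. These sums came mostly from few members. The epithelial keratin gene Krt19 (2.31 ± 0.267 against 0.613 ± 0.292 CPM) was called lower and Epcam (0.0312 ± 0.0117 against 0.232 ± 0.0607 CPM) higher, the VEGF receptor Kdr (0.391 ± 0.0742 against 2.60 ± 0.190 CPM) and the CSF1 receptor Csf1r (0.0464 ± 0.0204 against 1.68 ± 0.506 CPM) were called higher, and the macrophage gene Cd68 (3.28 ± 0.808 against 3.38 ± 0.309 CPM) was not called. Adipocyte markers summed to 10.9, 7.83 and 9.73 CPM in wild-type and 12.8, 12.8 and 12.9 CPM in Lkb1-/- libraries, where Pparg (3.344 ± 0.972 against 4.95 ± 0.575 CPM) and the lipase gene Lpl (0.0261 ± 0.0452 against 1.63 ± 0.124 CPM) were called higher and Fabp4 (6.10 ± 0.697 against 6.23 ± 0.584 CPM) was not called. The part of such cells in the results was not tested. In the neuronal list the vesicle protein gene Syp (0.0613 ± 0.0448 against 0.309 ± 0.0306 CPM) was called higher, and Map2 (93.4 ± 9.29 against 68.0 ± 9.68 CPM), a microtubule protein, made up most of the sum. Smooth muscle markers, which myofibroblasts share, summed to 444, 740 and 483 CPM in wild-type and 20.1, 22.8 and 12.9 CPM in Lkb1-/- libraries and consisted mostly of Acta2. Of the 3 tested, 2 were called lower and 1 higher, by 0.75 on the log2 scale. Cartilage and bone markers summed to 114, 116 and 116 CPM against 350, 341 and 344 CPM. Sox9, the chondrogenic factor, read 34.8, 38.4 and 42.8 CPM in wild-type and 161, 174 and 191 CPM in Lkb1-/- libraries (2.18 ± 0.12), while the osteoblast genes Sp7, Bglap and Ibsp and the cartilage collagen Col2a1 stayed near 0.

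Transcription factors that pattern limb, trunk and face were called in both directions. Of 36 tested, 18 were higher, 15 lower and 3 not called, against 30.1% higher and 25.8% lower among all genes. Among protein-coding genes 66.0% were called in either direction. Gata4, a factor of heart and gut mesoderm, read 0, 0 and 0.0522 CPM in wild-type and 32.6, 35.2 and 35.7 CPM in Lkb1-/- libraries. The COUP-TF gene Nr2f1 (0.0310 ± 0.0338 against 12.2 ± 1.46 CPM) and the pharyngeal and limb factor Pax9 (0.00869 ± 0.0151 against 7.59 ± 1.07 CPM) were likewise near 0 in wild type. In the other direction the engrailed gene En1 read 5.47, 6.15 and 5.03 CPM in wild type and 0 in every Lkb1-/- library, Lmx1b, a dorsal limb factor, 13.5 ± 2.12 against 0.806 ± 0.0784 CPM (-4.06 ± 0.24), and Msx2 2.83 ± 0.521 against 0.364 ± 0.150 CPM (-2.95 ± 0.30). Factors linked to mesenchymal transition leaned upwards, with 7 of 13 higher. Snai1 (15.9 ± 0.795 against 87.9 ± 7.44 CPM, 2.46 ± 0.11), Snai2 (10.5 ± 0.955 against 64.2 ± 6.54 CPM, 2.62 ± 0.17) and Foxf1 (4.72 ± 0.29) rose most, Prrx1 (-1.36 ± 0.11) was the single member lower, and 3 members were lower when replicate numbers entered the fit and 2 without Lkb1-/- library 1 or wild-type library 3. Zeb1 (124 ± 5.30 against 110.2 ± 8.06 CPM) and Twist1 (37.7 ± 1.99 against 42.6 ± 1.75 CPM) were not called.

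Matrix genes changed in both directions. Of 27 collagen genes tested 11 were higher and 8 lower. All 3 collagen VI genes, which form beaded microfibrils around cells, were higher, and Col6a3 read 0.246, 0.276 and 0.183 CPM in wild-type and 186, 214 and 199 CPM in Lkb1-/- libraries (9.70 ± 0.20). The fibrillar gene Col1a2 fell, from 595, 912 and 833 CPM in wild-type to 45.0, 73.4 and 70.7 CPM in Lkb1-/- libraries (-3.63 ± 0.30). Col4a5 (88.4 ± 16.4 against 13.2 ± 2.11 CPM, -2.75 ± 0.27), a basement membrane chain, Col8a1 (-2.50 ± 0.21) and Col4a2 (365 ± 22.7 against 109.9 ± 8.89 CPM, -1.73 ± 0.12) were the next lowest. Col16a1 (0.03 ± 0.10) was not called.

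Several glycoproteins fell steeply. The basement membrane linker nidogen-2 (Nid2) read 84.2, 115 and 97.1 CPM in wild-type and 0.294, 0.255 and 0.357 CPM in Lkb1-/- libraries (-8.34 ± 0.25), and the elastic fibre protein fibulin-5 (Fbln5) read 27.8, 46.6 and 34.5 CPM in wild-type and 0.136, 0.278 and 0.238 CPM in Lkb1-/- libraries (-7.37 ± 0.32). The small proteoglycan osteoglycin (Ogn) fell from 59.8 ± 18.2 to 1.04 ± 0.476 CPM (-5.84 ± 0.47). Of 45 matrix glycoprotein, proteoglycan and crosslinker genes, 24 were higher, 17 lower and 4 not called. Of these, 22 were higher and 11 lower by more than 1 on the log2 scale, and the heparan sulphate proteoglycan perlecan (Hspg2, 488 ± 29.8 against 522 ± 48.9 CPM) was not called.

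Proteases and their inhibitors moved mostly up, with 22 of 37 higher and 3 lower and a median of 1.24. Mmp2 led, and Adamts9, an aggrecan- and versican-cleaving protease, read 0.0670, 0.115 and 0.0261 CPM in wild-type and 17.2, 25.2 and 24.4 CPM in Lkb1-/- libraries (8.23 ± 0.31). The collagenase gene Mmp13 rose from 0.698 ± 0.133 to 43.9 ± 7.77 CPM (5.96 ± 0.70). The decreases included the urokinase receptor Plaur (89.0, 59.7 and 57.8 CPM in wild-type and 28.3, 20.9 and 21.3 CPM in Lkb1-/- libraries, -1.55 ± 0.21). The inhibitor Timp2 (0.05 ± 0.12) and the protease Mmp14 (187 ± 20.1 against 229.8 ± 37.9 CPM, FDR = 0.261, and 0.0112 with the replicate block) were not called.

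Integrins, the receptors that bind this matrix, and cadherins were higher in 10 and lower in 8 of 22 genes tested. Itga6 and Itga7, which pair with integrin β1 to bind laminin, fell (108 ± 7.80 against 25.1 ± 3.66 CPM, -2.10 ± 0.15 and 47.4 ± 2.79 against 12.5 ± 0.405 CPM, -1.92 ± 0.10). The collagen receptor gene Itga2 (0.0801 ± 0.0210 against 2.75 ± 1.25 CPM, 5.07 ± 0.62) and Itga8 (0.0916 ± 0.0913 against 7.81 ± 1.46 CPM, 6.43 ± 0.42), whose product binds fibronectin and tenascin, rose from near 0. Itgb1, the common β chain, read 1185 ± 40.0 against 1086 ± 22.5 CPM and was not called (FDR = 0.138, 0.0431 with the replicate block).

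**Figure D2:**
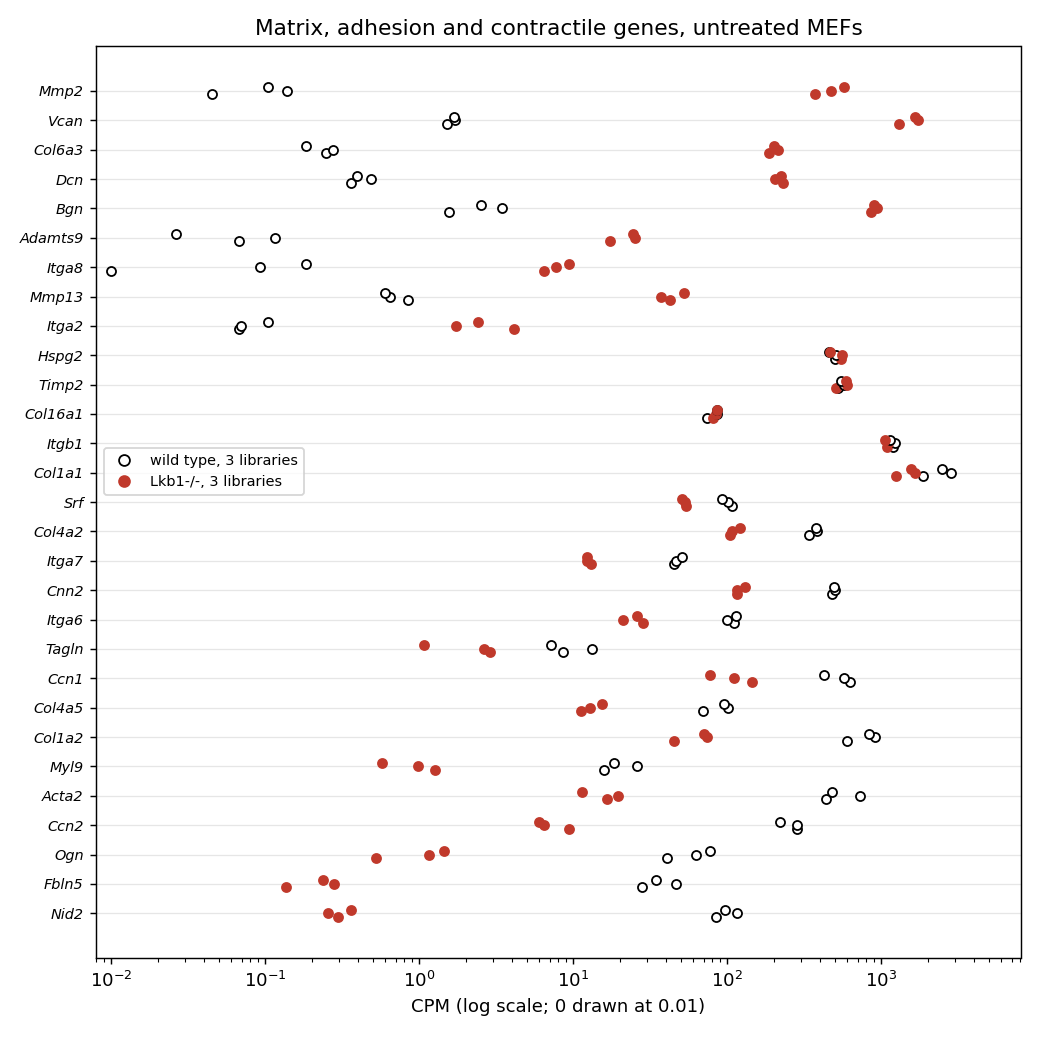
Levels of named matrix, protease, adhesion and contractile genes in each untreated library. The horizontal axis is CPM on a log scale, open circles are wild-type and filled circles Lkb1-/- libraries, and genes are ordered by their log2 fold change. Mmp2, Vcan, Col6a3 and Dcn lie far to the right in Lkb1-/- libraries, Nid2, Fbln5 and Acta2 far to the left, and Timp2 overlaps.

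Contractile genes of the myofibroblast programme were lower in 10 of 16, against 4 higher, with a median of -0.56. Besides Acta2, the myosin light chain Myl9 fell from 15.7, 25.9 and 18.3 CPM in wild-type to 1.27, 0.975 and 0.571 CPM in Lkb1-/- libraries (-4.40 ± 0.33), and calponin-2 (Cnn2, 487 ± 10.5 against 120.3 ± 8.47 CPM, -2.02 ± 0.15) and their transcription factor Srf (99.97 ± 7.0 against 52.5 ± 1.67 CPM, -0.93 ± 0.09) were lower. Desmin (0.0781 ± 0.0329 against 0.310 ± 0.0730 CPM, 1.94 ± 0.55) was higher at a very low level. The Hippo pathway list, which holds YAP/TAZ, the TEAD factors they bind and their targets, showed 14 of 23 lower and 2 higher, with a median of -0.49. The targets Ccn2, Ccn1 (541 ± 105 against 111 ± 33.7 CPM, -2.29 ± 0.25) and Ankrd1 (47.6 ± 7.50 against 15.3 ± 5.67 CPM, -1.64 ± 0.25) were lower, as were Yap1 (-0.53 ± 0.08), Tead4 (-1.40 ± 0.11) and the inhibitory kinase Lats2 (-1.15 ± 0.08). Tead2 was higher (69.6 ± 5.23 against 157 ± 14.5 CPM, 1.18 ± 0.13), and the target Amotl2 (0.13 ± 0.13) and the kinase Stk3 (-0.06 ± 0.12) were not called.

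Secreted growth factors leaned upwards, with 14 of 27 higher and 4 lower. Hepatocyte growth factor (Hgf), the mesenchymal ligand of MET, read 0.0893, 0.0230 and 0.0261 CPM in wild-type and 23.1, 24.6 and 33.8 CPM in Lkb1-/- libraries (9.08 ± 0.57), and Fgf7, a ligand of the epithelial FGF receptor, read 0.737, 1.40 and 1.02 CPM in wild-type and 150.2, 153 and 156 CPM in Lkb1-/- libraries. The neurotrophic factor pleiotrophin (Ptn) had no count in wild type and 1.09, 1.83 and 1.76 CPM in Lkb1-/- libraries. The lower members were the EGF receptor ligand Hbegf (28.5 ± 7.11 against 12.5 ± 2.68 CPM, -1.19 ± 0.22), Bdnf (-0.59 ± 0.15), Pdgfa (-0.39 ± 0.12) and Vegfb (-0.38 ± 0.10). Receptor tyrosine kinases were split, 10 higher and 10 lower of 25. Pdgfra rose as given above, Ror1 (0.161 ± 0.0988 against 3.63 ± 0.420 CPM, 4.44 ± 0.46) rose from near 0, and the VEGF receptor Flt1 fell from 111, 134 and 120.5 CPM in wild-type to 6.95, 8.68 and 8.02 CPM in Lkb1-/- libraries (-3.95 ± 0.16). Mertk (-2.79 ± 0.18) and Igf1r (269 ± 18.7 against 118 ± 6.92 CPM, -1.19 ± 0.12) also fell. In the IGF axis, Igfbp4, an IGF binding protein, read 0.335, 0.368 and 0.5999 CPM in wild-type and 113, 117 and 168 CPM in Lkb1-/- libraries (8.26 ± 0.39) and Igfbp3 rose from 0 to 4.37, 4.85 and 6.26 CPM.

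Among TGF-β and BMP genes, 24 of 44 were higher and 13 lower, and the secreted antagonists went both ways. The BMP antagonist gremlin (Grem1) read 0.0447, 0.115 and 0 CPM in wild-type and 189, 223 and 195 CPM in Lkb1-/- libraries (11.76 ± 0.41), whereas noggin (Nog) fell from 4.11 ± 1.03 to 0.317 ± 0.0919 CPM (-3.69 ± 0.35) and the activin antagonist Fstl3 from 13.3 ± 1.07 to 0.615 ± 0.224 CPM (-4.44 ± 0.30). Activin A subunit Inhba rose from 2.59, 2.28 and 1.96 CPM in wild-type to 111, 87.1 and 87.8 CPM in Lkb1-/- libraries (5.38 ± 0.15). Bmp4 (-1.56 ± 0.24) and Tgfb2 (-1.34 ± 0.16) fell, and Tgfb1 read 101 ± 9.31 against 101 ± 9.95 CPM and was not called.

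Wnt genes were called in both directions, 22 higher and 12 lower of 41. Secreted antagonists Sfrp2 (0 in wild type, 6.18, 16.1 and 14.1 CPM) and Dkk2 (5.80 CPM on average) and the receptor Fzd3 (22.8 CPM) were present in Lkb1-/- cells and close to 0 in wild type, and the ligands Wnt9a (7.11 ± 2.02 against 0.240 ± 0.154 CPM, -4.87 ± 0.37) and Wnt10b (18.7 ± 0.956 against 4.46 ± 0.612 CPM, -2.07 ± 0.13) and the receptors Fzd5 (-1.77 ± 0.15) and Fzd7 (99.2 ± 8.94 against 29.2 ± 1.76 CPM, -1.76 ± 0.16) fell. β-Catenin (Ctnnb1, 599.7 ± 26.0 against 654 ± 67.1 CPM) was not called. In the Notch pathway the ligand Jag2 (-2.65 ± 0.12), the receptor Notch1 (63.8, 65.5 and 64.8 CPM in wild-type and 25.6, 33.7 and 36.0 CPM in Lkb1-/- libraries, -1.02 ± 0.12) and the feedback target Nrarp (6.79 ± 0.893 against 0.0937 ± 0.0641 CPM, -6.15 ± 0.42) fell, while Notch3 (0.0251 ± 0.0261 against 4.0 ± 1.31 CPM) and the target Hey1 (0.186 ± 0.0756 against 5.94 ± 0.192 CPM, 4.95 ± 0.30) rose.

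Known targets of CREB, the factor that CRTC proteins activate, leaned upwards. Of 15, 10 were higher, 2 lower and 3 not called, and the median was 1.05. The cAMP phosphodiesterase gene Pde4b read 2.88, 3.91 and 4.46 CPM in wild-type and 183, 198 and 201 CPM in Lkb1-/- libraries (5.70 ± 0.18). Pde4d, of the same family, read 42.1, 47.1 and 46.3 CPM in wild-type and 131, 157 and 171 CPM in Lkb1-/- libraries (1.76 ± 0.17), and the G protein regulator Rgs2 1.08 ± 0.418 against 11.2 ± 1.22 CPM (3.36 ± 0.24). Neither phosphodiesterase overlapped between the groups. The nuclear receptor genes Nr4a1 (6.72, 5.92 and 4.56 CPM in wild-type and 12.2, 8.96 and 9.55 CPM in Lkb1-/- libraries, 0.83 ± 0.17), Nr4a2 (8.01 ± 1.22 against 20.6 ± 2.0 CPM, 1.36 ± 0.20) and Nr4a3 (1.93 ± 0.35) rose, as did the coactivator Ppargc1a, from 0.0174 ± 0.0301 to 2.83 ± 0.625 CPM, and the EGF receptor ligand Areg (0.592 ± 0.309 against 3.24 ± 1.08 CPM, 2.46 ± 0.43). Bdnf (33.8 ± 1.72 against 22.5 ± 3.50 CPM, -0.59 ± 0.15) was lower, and the clock gene Per1 (0.11 ± 0.13) was not called. Of the coactivators, Crtc1 (28.9 ± 1.01 against 61.9 ± 2.20 CPM, 1.10 ± 0.07) and Crtc2 (58.4 ± 2.44 against 81.2 ± 1.80 CPM, 0.47 ± 0.07) were higher and Crtc3 (-0.40 ± 0.13) lower, and Creb1 was lower (147 ± 2.73 against 109 ± 9.11 CPM, -0.43 ± 0.11).

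The consensus site of CREB is the palindrome TGACGTCA (cAMP response element, CRE). The 4 promoters below hold it and are shown because the genes moved in opposite directions, Areg, Dusp1 (0.37 ± 0.09) and the lysosome and pigment cell factor Mitf (3.48 ± 0.16) up and Flt1 (-3.95 ± 0.16) down. Areg, Dusp1 and Flt1 have 1 start in the RefSeq promoter table and Mitf has 3, of which the one that holds the site is shown, and counts per gene do not show which start was used. Each line gives the 250 bases before that start from RefSeq (GRCm38.p6), 5′ to 3′ on the strand of the gene, with the CRE in capitals.
Areg, chr5:91139349-91139598 (+ strand): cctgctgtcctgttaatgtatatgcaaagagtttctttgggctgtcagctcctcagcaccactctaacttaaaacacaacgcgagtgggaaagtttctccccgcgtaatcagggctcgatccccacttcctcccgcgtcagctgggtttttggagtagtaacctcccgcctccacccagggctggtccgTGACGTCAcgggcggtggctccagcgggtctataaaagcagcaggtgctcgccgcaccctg
Dusp1, chr17:26508473-26508722 (- strand): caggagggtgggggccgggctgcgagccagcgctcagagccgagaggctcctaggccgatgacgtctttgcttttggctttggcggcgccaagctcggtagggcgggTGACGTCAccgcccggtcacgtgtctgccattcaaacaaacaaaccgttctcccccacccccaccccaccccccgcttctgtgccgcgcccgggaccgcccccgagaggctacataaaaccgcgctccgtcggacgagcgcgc
Mitf, chr6:97991533-97991782 (+ strand): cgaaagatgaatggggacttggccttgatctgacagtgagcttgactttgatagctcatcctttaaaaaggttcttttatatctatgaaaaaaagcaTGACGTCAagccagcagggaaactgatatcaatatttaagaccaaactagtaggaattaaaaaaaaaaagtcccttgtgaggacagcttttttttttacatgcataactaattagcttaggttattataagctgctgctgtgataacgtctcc
Flt1, chr5:147726012-147726261 (- strand): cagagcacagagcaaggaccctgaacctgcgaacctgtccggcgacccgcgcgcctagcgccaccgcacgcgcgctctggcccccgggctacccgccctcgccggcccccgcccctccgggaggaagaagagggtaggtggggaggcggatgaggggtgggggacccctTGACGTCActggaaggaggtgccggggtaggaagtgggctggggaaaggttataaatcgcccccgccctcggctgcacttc
The first base of the site lies 61, 143, 153 and 81 bases before the start, in this order. Over all RefSeq promoters (250 bases before to 50 after a start, both strands), 1.79% held the site. Among genes tested the share was 2.57% of promoters of genes called higher, 2.96% of those called lower and 3.26% of those not called, 1.91% for genes higher by more than 1 and 2.93% for all genes tested. The AP-1 site TGANTCA, which does not occur inside the CRE, was found in 5.65%, 5.63% and 5.53% of the same groups and in 7.25% of promoters of genes higher by more than 1, against 5.6% of those of all genes tested and 7.81% of all promoters. A match describes letters in this window and not binding.

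Interferon-stimulated genes, antiviral effectors that cells switch on after sensing interferon, were lower in 13 of 25, against 2 higher, with a median of -1.33. The master regulator Irf7 read 1.43, 2.42 and 14.8 CPM in wild-type and 0.226, 0.278 and 0.191 CPM in Lkb1-/- libraries (-4.72 ± 0.94), Ifi44 2.46, 6.33 and 36.4 CPM in wild-type and 0.294, 0.673 and 0.833 CPM in Lkb1-/- libraries (-4.64 ± 0.89) and the antiviral sensor gene Oas1a 3.46, 4.03 and 12.7 CPM in wild-type and 0.294, 0.278 and 0.333 CPM in Lkb1-/- libraries (-4.46 ± 0.55). Wild-type library 3 carried the highest level of all 3 genes, and without it the log2 fold changes were -3.09 for Irf7, -2.93 for Ifi44 and -3.68 for Oas1a. Summed over the list, the wild-type libraries held 400, 482 and 918 CPM and the Lkb1-/- libraries 349, 423 and 429 CPM, so the sums overlapped. Without wild-type library 3, 10 members were lower, with a median of -0.28. Usp18 (-3.21 ± 0.70), Rsad2 (-3.09 ± 0.58), Bst2 (26.4 ± 15.5 against 5.33 ± 0.993 CPM, -2.31 ± 0.34) and the RNA sensor Ifih1 (28.6 ± 17.7 against 8.86 ± 1.61 CPM, -1.69 ± 0.43) were among the lower genes. Without the same library Usp18 differed by -1.62, Rsad2 by -2.10, Bst2 by -1.80 and Ifih1 by -1.12, and all of them were still called. Gbp2 (6.03 ± 3.80 against 31.2 ± 8.21 CPM, 2.39 ± 0.61) and Irf1 (0.58 ± 0.14), which respond to interferon-γ, were the higher ones, and Ifit1 (11.3 ± 11.4 against 10.8 ± 2.64 CPM) was not called.

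Of 14 MHC class I presentation genes 4 were higher and 4 lower, close to the shares over all genes. The MHC class I light chain gene B2m (604 ± 96.5 against 431 ± 14.0 CPM, -0.49 ± 0.14) was lower, and the transactivator Nlrc5 (1.63, 1.61 and 3.55 CPM in wild-type and 16.1, 14.2 and 14.3 CPM in Lkb1-/- libraries, 2.73 ± 0.29), the immunoproteasome gene Psmb8 (1.32 ± 0.845 against 6.52 ± 0.723 CPM, 2.31 ± 0.46) and the transporter Tap2 (1.22 ± 0.29) were higher. Complement genes rose, 7 of 11, among them the central component C3 (2.90, 3.73 and 4.83 CPM in wild-type and 136, 172 and 159.8 CPM in Lkb1-/- libraries, 5.36 ± 0.30). The complement inhibitor Cd55 had no count in wild type and 9.21, 8.96 and 12.9 CPM in Lkb1-/- libraries, and C1s1 (2.98 ± 0.36) and C4b (4.67 ± 0.45) were higher.

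Of 23 interleukin and TNF family ligand genes 12 were higher and 4 lower. Among the larger increases was that of the IL-1 receptor antagonist gene Il1rn (0.223, 0 and 0.0783 CPM in wild-type and 2.85, 4.20 and 5.19 CPM in Lkb1-/- libraries, 5.28 ± 0.77). Stem cell factor (Kitl) fell from 206, 227 and 248 CPM in wild-type to 84.3, 109 and 117 CPM in Lkb1-/- libraries (-1.14 ± 0.22) and the CSF1 receptor ligand Il34 by 0.79 on the log2 scale. Chemokines were higher in 12 of 21 and lower in 1 (3 with the replicate block, and 3 and 2 without wild-type library 1 or Lkb1-/- library 3). Cxcl14 had no count in wild-type and 0.747, 0.835 and 1.0 CPM in Lkb1-/- libraries, and Ccl20, the ligand of CCR6, read 1.21, 1.08 and 0.5999 CPM in wild-type and 0 in all Lkb1-/- libraries. Cx3cl1 (21.6 ± 3.80 against 18.9 ± 0.338 CPM) was not called.

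Of 20 genes for IL-6 family receptors and their JAK, STAT and SOCS proteins, 6 were higher and 6 lower, again close to the shares over all genes. The oncostatin M receptor Osmr read 28.9, 25.7 and 31.4 CPM in wild-type and 222, 236 and 212 CPM in Lkb1-/- libraries (2.96 ± 0.14), and the receptor genes Lifr (141 ± 19.1 against 82.7 ± 16.2 CPM, -0.77 ± 0.23) and Il6ra (51.2 ± 3.46 against 31.6 ± 2.98 CPM, -0.70 ± 0.09) were lower. Socs2, an inhibitor of growth hormone and STAT5 signalling, read 34.8, 35.0 and 36.4 CPM in wild-type and 0.498, 0.719 and 0.595 CPM in Lkb1-/- libraries (-5.87 ± 0.28), Stat5b fell (63.0 ± 3.45 against 27.7 ± 2.73 CPM, -1.19 ± 0.16), and Socs3 rose (20.6 ± 1.58 against 47.8 ± 7.18 CPM, 1.22 ± 0.26). Of NF-κB genes, the atypical inhibitors Bcl3 (16.7 ± 2.86 against 41.5 ± 3.99 CPM, 1.31 ± 0.22) and Nfkbiz (25.8 ± 2.87 against 58.8 ± 7.95 CPM, 1.19 ± 0.11) were higher, Rel was lower (-0.70 ± 0.10), and Rela (77.6 ± 1.24 against 82.4 ± 3.57 CPM) was not called. The AP-1 factor Fosl2 read 72.9, 73.9 and 69.6 CPM in wild-type and 428, 495 and 448 CPM in Lkb1-/- libraries (2.66 ± 0.13) and the stress factor Atf3 11.6, 11.8 and 12.2 CPM in wild-type and 1.61, 1.21 and 1.36 CPM in Lkb1-/- libraries (-3.09 ± 0.14), and neither overlapped, while Jun (78.8 ± 12.8 against 83.3 ± 3.0 CPM) was not called. In prostaglandin metabolism Ptgs1 rose and Ptgs2, the inducible cyclooxygenase, did not pass the test (129.5 ± 38.6 against 128 ± 42.0 CPM, -0.02 ± 0.25). The prostaglandin F receptor Ptgfr had at most 2 counts in a wild-type library and 15.5, 19.7 and 22.7 CPM in Lkb1-/- libraries, and the phospholipase Pla2g4a (103 ± 3.37 against 44.5 ± 2.05 CPM, -1.21 ± 0.08) fell. The prostaglandin D synthase Ptgds was called lower, at 1.21, 2.12 and 1.96 CPM in wild-type and 0, 0 and 0.167 CPM in Lkb1-/- libraries, and no fold is given because its Lkb1-/- level came from library 3 alone.

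**Figure D3:**
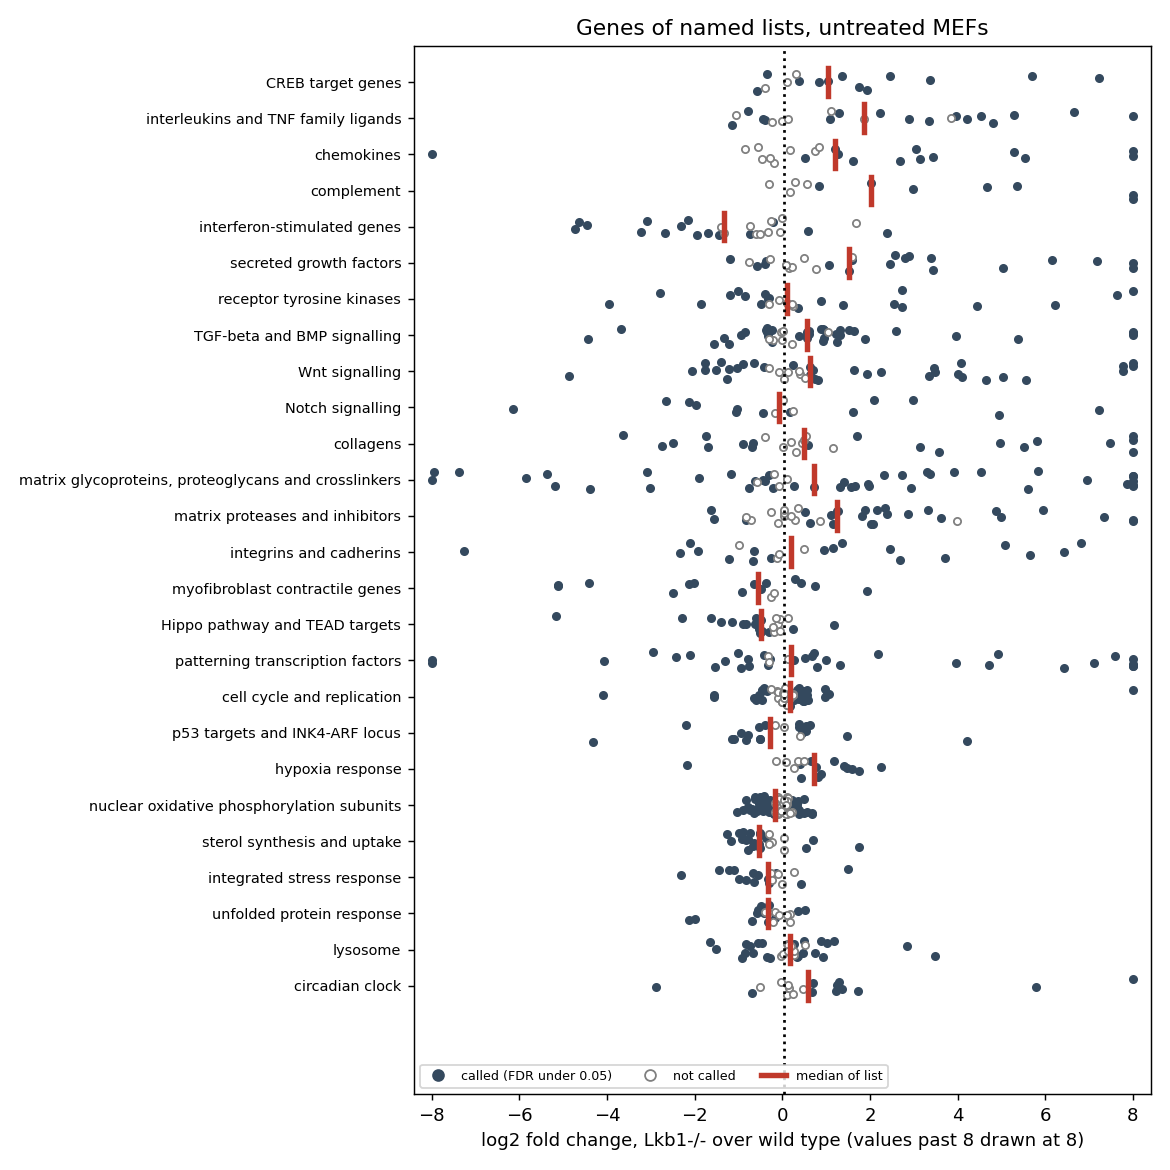
Log2 fold changes of the members of 26 gene lists. The horizontal axis is the log2 fold change of Lkb1-/- over wild type with values past 8 in either direction drawn at the edge, each dot is a gene tested, filled when called, the bar is the list's median and the dotted line the median of all genes. Interferon-stimulated, sterol, contractile and Hippo lists lie mostly left of the line and complement, growth factor and protease lists mostly right.

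Cyclins D1 and D2 and their partner kinase Cdk6 fell. Cyclin D2 (Ccnd2) read 258, 251 and 246 CPM in wild-type and 16.7, 13.1 and 14.4 CPM in Lkb1-/- libraries (-4.10 ± 0.26), cyclin D1 (Ccnd1) 333, 323 and 329.7 CPM in wild-type and 143, 92.0 and 98.4 CPM in Lkb1-/- libraries (-1.56 ± 0.25) and the partner kinase gene Cdk6 318, 316 and 300.5 CPM in wild-type and 97.6, 115 and 104 CPM in Lkb1-/- libraries (-1.56 ± 0.12). The groups did not overlap in these 3 genes. Cyclin D3 (Ccnd3, 72.9 ± 1.99 against 78.7 ± 0.914 CPM, 0.11 ± 0.07) was not called (FDR = 0.168, and 0.0405 with the replicate block), and the other D cyclin kinase gene, Cdk4 (543 ± 3.66 against 394 ± 17.2 CPM, -0.46 ± 0.05), was lower by less. Both were named after their values were seen. The CDK inhibitor p57 (Cdkn1c), an imprinted gene, rose from at most 2 counts in any wild-type library to 16.5, 22.0 and 24.2 CPM. Of 55 cell cycle and replication genes 25 were higher, 11 lower and 19 not called, and Gins2 (1.06 ± 0.08), E2f1 (1.02 ± 0.09) and Rb1 (0.98 ± 0.17) were the next largest increases. Cyclin A2 (Ccna2, 421 ± 10.2 against 476 ± 26.7 CPM, 0.18 ± 0.09) was not called (FDR = 0.122, and 0.0225 with the replicate block). In the list of recombination and Fanconi repair genes 12 were higher and 8 lower of 29, all but Fancg (6.60 ± 0.429 against 16.5 ± 0.890 CPM, 1.33 ± 0.10) by less than 1.

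Targets of p53 were called in both directions, 11 of 22 lower against 8 higher in a list that also holds the INK4 and ARF inhibitors. The CDK inhibitor p21 (Cdkn1a) read 22.2, 25.9 and 42.5 CPM in wild-type and 12.8, 12.7 and 15.6 CPM in Lkb1-/- libraries (-1.14 ± 0.23), the feedback regulator Mdm2 121, 111 and 127 CPM in wild-type and 67.9, 69.3 and 69.8 CPM in Lkb1-/- libraries (-0.79 ± 0.05), and Ccng1 (152 ± 34.0 against 85.8 ± 4.43 CPM, -0.82 ± 0.14), Bax (-0.52 ± 0.08), Perp (-2.20 ± 0.13) and Trp53 itself (353 ± 18.4 against 267 ± 10.01 CPM, -0.40 ± 0.09) were lower. The pro-apoptotic targets went the other way in part, with Pmaip1 (Noxa, 0.196 ± 0.112 against 3.58 ± 0.450 CPM, 4.21 ± 0.34) and Fas (7.50 ± 1.51 against 20.8 ± 4.62 CPM, 1.48 ± 0.27) higher. Cdkn2a, which encodes both p16 and ARF, was expressed in both lines and higher in Lkb1-/- (93.9, 113 and 121 CPM in wild-type and 142, 165 and 171 CPM in Lkb1-/- libraries, 0.54 ± 0.15).

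Among metabolic lists, sterol synthesis and uptake genes, targets of SREBP2, were lower in 16 of 24 and higher in 3, with a median of -0.53. Hsd17b7, an enzyme of the later steps, read 140.5, 184 and 176 CPM in wild-type and 65.1, 70.6 and 72.7 CPM in Lkb1-/- libraries (-1.26 ± 0.12), and Dhcr7, which makes cholesterol in the last step of one branch, read 142, 181 and 183 CPM in wild-type and 81.4, 85.5 and 88.5 CPM in Lkb1-/- libraries (-0.99 ± 0.11). The groups did not overlap in either gene. Fdft1, squalene synthase, rose (174 ± 21.3 against 283 ± 19.7 CPM, 0.70 ± 0.13), as did Srebf2 (342 ± 14.1 against 502 ± 36.3 CPM, 0.55 ± 0.10), and Sqle (0.04 ± 0.11) was not called. Fatty acid synthesis genes were lower in 7 of 14, among them Acacb (-1.28 ± 0.27), Acly (598 ± 56.7 against 427 ± 35.3 CPM, -0.49 ± 0.12) and Fasn (942 ± 74.7 against 727 ± 18.9 CPM, -0.37 ± 0.10).

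Nuclear genes for oxidative phosphorylation were lower in 37 of 77 and higher in 16, by small amounts (median -0.16). The complex II gene Sdhc (86.4, 95.8 and 99.3 CPM in wild-type and 46.0, 53.8 and 51.8 CPM in Lkb1-/- libraries, -0.89 ± 0.08) and the ATP synthase genes Atp5g1 (-0.84 ± 0.09) and Atp5d (-0.77 ± 0.06) were among the lower members. With both libraries numbered 1 left out, 9 were higher and 39 lower. None of the 7 mitochondrially encoded subunit genes tested was called or had an unadjusted p under 0.05 by edgeR (0 of 7) or by DESeq2 (0 of 7), and 4 were lower with the replicate block. Their summed level was 32440, 20640 and 19510 CPM in wild-type and 28960, 15980 and 13530 CPM in Lkb1-/- libraries, so library 1 was highest in both lines.

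Of 23 glycolysis genes 10 were higher and 4 lower. The monocarboxylate transporter Slc16a3 rose from 0 to 1.49 CPM and Slc16a1 fell (316, 305 and 297 CPM in wild-type and 136, 123 and 123 CPM in Lkb1-/- libraries, -1.26 ± 0.14). Hexokinase 2 (Hk2) fell (146, 134 and 134 CPM in wild-type and 68.3, 70.2 and 59.2 CPM in Lkb1-/- libraries, -1.07 ± 0.14) with the glucose transporter Slc2a1 (264 ± 29.0 against 171 ± 14.4 CPM, -0.62 ± 0.14), the muscle and platelet phosphofructokinases Pfkm (1.36 ± 0.13) and Pfkp (1.29 ± 0.17) rose, and Gapdh (1320 ± 15.9 against 1329 ± 96.6 CPM) and Pkm (1798 ± 74.8 against 1920 ± 93.3 CPM) were not called. Hypoxia response genes were higher in 12 of 18, with the kinase gene Pdk1 (10.6, 26.4 and 29.9 CPM in wild-type and 90.0, 114 and 114 CPM in Lkb1-/- libraries, 2.25 ± 0.37), Ndrg1 (1.19 ± 0.14) and Hif1a (409 ± 6.80 against 720 ± 97.8 CPM, 0.81 ± 0.19) among them. The HIF-2α gene Epas1 was the single member lower (20.4, 30.0 and 31.9 CPM in wild-type and 5.82, 5.52 and 6.95 CPM in Lkb1-/- libraries, -2.17 ± 0.27).

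Integrated stress response genes, the targets of ATF4, were lower in 12 of 19, led by Nupr1 (40.8, 44.8 and 47.4 CPM in wild-type and 7.95, 8.72 and 10.1 CPM in Lkb1-/- libraries, -2.31 ± 0.24), Chac1 (-1.45 ± 0.20), the amino acid transporter Slc7a5 (391.6 ± 40.1 against 168 ± 12.9 CPM, -1.22 ± 0.08) and the serine pathway enzyme Shmt2 (366 ± 24.1 against 172 ± 7.67 CPM, -1.09 ± 0.06), while Atf4 itself (267 ± 12.2 against 265 ± 3.72 CPM) was not called. Unfolded protein response genes were lower in 11 of 21 and higher in 2 (15 and 5 with the replicate block). Without wild-type library 1 or Lkb1-/- library 3, 1 was higher. The chaperone cofactor Dnajc3 (188, 213 and 223 CPM in wild-type and 41.6, 50.05 and 52.1 CPM in Lkb1-/- libraries, -2.12 ± 0.14) and the sensor Atf6 (137, 130.2 and 133 CPM in wild-type and 33.4, 32.9 and 35.3 CPM in Lkb1-/- libraries, -1.98 ± 0.10) fell most. Lysosome genes split, 12 higher and 11 lower of 32. The regulator Mitf rose (10.1, 8.52 and 10.8 CPM in wild-type and 95.2, 118 and 115 CPM in Lkb1-/- libraries, 3.48 ± 0.16) with Ctsb (363 ± 31.0 against 826 ± 59.2 CPM, 1.19 ± 0.12), and Gpnmb (262 ± 48.2 against 83.4 ± 9.45 CPM, -1.65 ± 0.22) and Neu1 (-1.50 ± 0.15) fell. In the autophagy list 9 were higher and 5 lower of 27. The initiating kinase Ulk1 rose (41.1 ± 2.82 against 88.1 ± 11.6 CPM, 1.10 ± 0.14) and the receptor Sqstm1 (p62) fell (513 ± 34.2 against 276 ± 24.1 CPM, -0.90 ± 0.11). Of NRF2 targets 8 were higher and 6 lower of 26, with the glutathione transferase Gsta4 (0.804, 0.437 and 0.574 CPM in wild-type and 27.8, 31.4 and 35.6 CPM in Lkb1-/- libraries, 5.69 ± 0.21) higher and the exporter Abcc4 (86.0 ± 6.51 against 30.5 ± 1.57 CPM, -1.50 ± 0.09) lower, and thioredoxin (Txn1, 272 ± 5.64 against 303 ± 9.62 CPM) not called.

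Clock genes were higher in 9 of 18. Hlf, a PAR bZIP factor, read 0.223, 0 and 0.130 CPM in wild-type and 74.5, 87.3 and 104 CPM in Lkb1-/- libraries (9.51 ± 0.56), and its relatives Tef (30.7 ± 4.20 against 72.1 ± 12.2 CPM, 1.23 ± 0.19) and Dbp (2.48 ± 0.532 against 6.03 ± 1.28 CPM, 1.28 ± 0.26) rose with Per2 (8.19 ± 1.91 against 21.0 ± 3.50 CPM, 1.35 ± 0.24) and Cry2 (1.72 ± 0.10). Bhlhe41 (20.5, 26.1 and 24.8 CPM in wild-type and 3.35, 3.09 and 3.21 CPM in Lkb1-/- libraries, -2.88 ± 0.16) and Cry1 (-0.68 ± 0.16) were the 2 lower genes, and Clock (184 ± 4.93 against 181 ± 3.23 CPM) was not called. Of 14 imprinted genes tested 7 were higher and 2 lower. The antisense RNA Kcnq1ot1, whose transcription silences Cdkn1c in cis, read 33.0, 33.9 and 30.6 CPM in wild-type and 9.78, 8.05 and 6.50 CPM in Lkb1-/- libraries (-2.003 ± 0.22), the reverse of Cdkn1c. Mest rose from 0 to 1.29, 1.93 and 1.33 CPM, and Igf2 had no count in any library.

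Differences also varied by chromosome. The median log2 fold change was -0.44 on chromosome 10, -0.29 on chromosome 1 and -0.18 on chromosome 7, and 0.40 on chromosome 15 and 0.26 on chromosome 17, against 0.0414 over all genes. On chromosome 10, 49.3% of genes were lower and 18.3% higher, and on chromosome 15, 77 genes were lower and 353 higher of 706. Among genes above 3 log2 CPM the medians of these 2 chromosomes were -0.58 and 0.29. The quartiles on chromosome 10, which carries Stk11, were -0.79 and 0.24. Copy number was not measured, and its part in these medians was not tested. The differences of single genes and lists given above were not adjusted for the median of their chromosome.

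**Figure D4:**
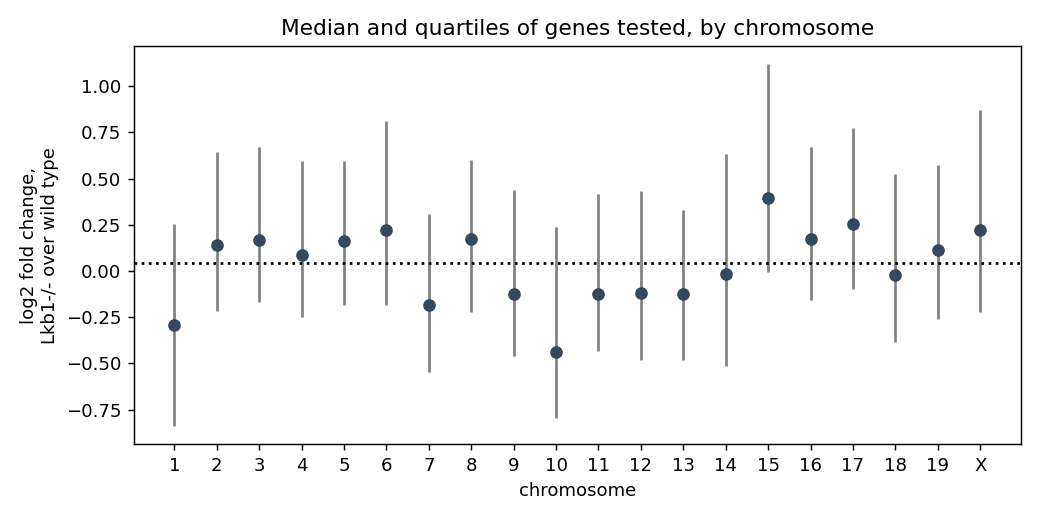
Log2 fold changes by chromosome. Points are medians and bars run from the first to the third quartile of the genes tested on each chromosome, on a vertical axis of log2 fold change of Lkb1-/- over wild type, and the dotted line is the median of all genes. Chromosome 10 has the lowest and chromosome 15 the highest median among the autosomes.

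The libraries given IL-1β are separate samples of the same lines. They show whether the difference between the lines is seen again, and not whether it comes from Stk11. Their replicate numbers pair them with the untreated libraries, so they are not independent of these. With IL-1β, 30.2% of genes were higher and 27.1% lower in Lkb1-/- cells. Of the genes higher untreated, 4662 (88.3%) were higher with IL-1β too, and of those lower, 4075 (90.2%) were lower. Only 6 genes were called in opposite directions. The test of the difference itself called 43 genes (0.245%), of which 24 had a Lkb1-/- over wild-type ratio that rose after IL-1β and 19 a ratio that fell, and 311 with the replicate number as a block. The genes with the smallest p in each direction included Tbx3, a limb and heart T-box factor, with 0.27 ± 0.08 untreated (0.20, 0.21 and 0.20, not called, without Lkb1-/- library 1, wild-type library 3 or Lkb1-/- library 3) and 1.76 ± 0.08 with IL-1β, and Afap1l2, an actin-associated adaptor, with -0.21 ± 0.15 and 1.51 ± 0.15. Among the ratios that fell were those of Rab15 (5.07 ± 0.26 and 2.18 ± 0.20), Slc16a9 (1.79 ± 0.22 and -0.39 ± 0.17) and the EGF receptor substrate Eps8 (-1.004 ± 0.07 and -1.75 ± 0.07). Sterol synthesis genes, picked out after their values were seen, were also among those that fell further. Hmgcs1 differed by -0.52 ± 0.16 untreated (-0.40, not called, without wild-type library 2) and -1.86 ± 0.17 with IL-1β, Insig1 by -0.52 ± 0.15 and -1.60 ± 0.16, and Lss by -0.77 ± 0.13 and -1.71 ± 0.14. The gap for C3 narrowed from 5.36 ± 0.30 to 3.24 ± 0.25.

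**Figure D5:**
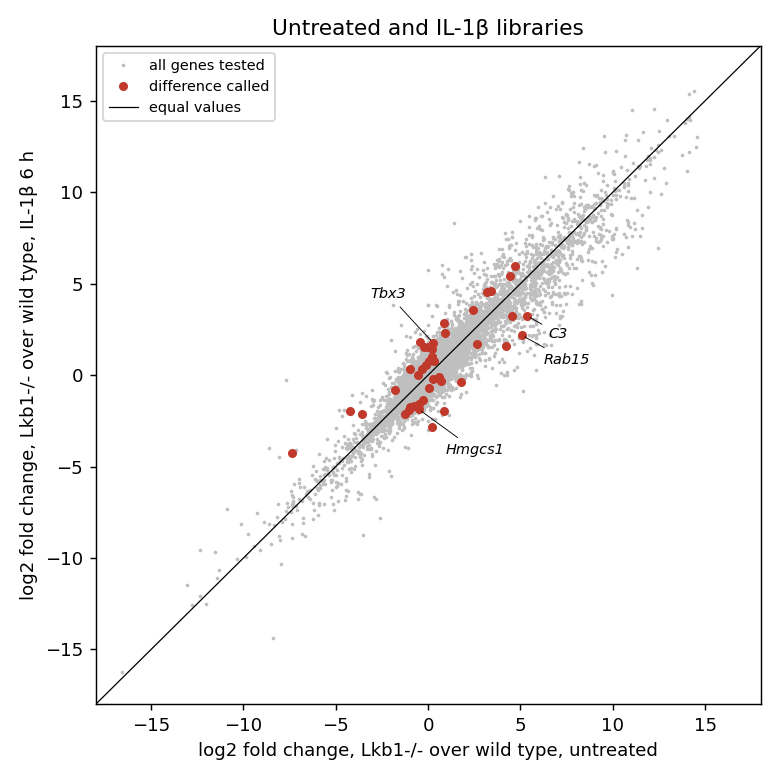
Log2 fold change of Lkb1-/- over wild type in untreated libraries (horizontal axis) and in libraries given IL-1β for 6 h (vertical axis) for all genes tested. Grey points are all genes, filled points are the 43 genes whose 2 differences were called unequal, and the line marks equal values. Most genes lie along the line, and Hmgcs1, Tbx3, C3 and Rab15 are labelled among those off it. For genes at 0 in a line the plotted value depends on the prior count.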

How the data were processed

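RNA-seq of 24 MEF libraries was used, of which the 6 untreated wild-type and Lkb1-/- libraries are reported. Per the labels and the study's methods, the authors trimmed reads with Trim Galore 0.6.0 and mapped them to mm10 with STAR 2.7.8a, and the deposited files are STAR's whole-number counts per gene, unnormalized. Counts of the second strand were used, because 95.69% to 95.93% of strand-assigned pairs lay there. The 4 lines that name no gene (28.3% to 31.0% of pairs) were left out.

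In edgeR 4.0.16 (R 4.3.3), genes were kept by filterByExpr (minimum count 10, minimum total 15), libraries scaled by TMM and a model with 1 term per group fitted to all 24 libraries, which share the estimate of spread (common biological coefficient of variation 0.129). The quasi-likelihood test gave p-values, adjusted by Benjamini-Hochberg, and SE is the log2 fold change over the square root of F. With 3 libraries a group an exact permutation test could not go below p = 0.1, so none was used. The code was tested on simulated counts in which most genes were equal between the lines, unlike these data. That test does not show how the scaling behaves with as many differences as here.

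Alternatives were the counts without strand, other scalings, filters and quasi-likelihood settings, DESeq2 1.42.0, edgeR on just the libraries of the compared groups, the replicate number as a block, each library left out, and both untreated libraries numbered 1 left out, the last chosen after seeing the data. Same-numbered libraries deviated together from their group means in all 84 pairs of groups and numbers (r between 0.238 and 0.819, and between 0.309 and 0.652 for the untreated wild-type and Lkb1-/- libraries), so the numbers pair the libraries. The pairing comes from the data, since the labels do not say what a number stands for.

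The comparison, the gene lists and the rules were chosen with earlier results of these data known. Named genes are Stk11, the 10 largest called differences in each direction above 3 log2 CPM without overlap, the 10 highest genes at the detection limit of the other line, in each list up to 4 called members a direction and 2 not called (or any member of a list of 25 or fewer), and up to 3 genes a direction with the smallest p for the difference with IL-1β. Neighbours in the HoxD, HoxA and Armcx regions, Ccnd3, Cdk4 and the sterol genes with IL-1β were named after their values were seen. Promoters came from RefSeq. Some genes that these rules name are not reported here.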

Additional observations from a re-analysis of the deposited data

Results flagged for a closer look

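The genes below are named in the report and their Lkb1-/- over wild-type difference changed between untreated and IL-1β libraries, by edgeR's test of the difference itself adjusted over all genes tested. Tbx3 and Afap1l2 gained, by 1.49 ± 0.12 and 1.72 ± 0.21 on the log2 scale. The ratio of Rab15 changed by -2.89 ± 0.34, of Slc16a9 by -2.18 ± 0.27, of Eps8 by -0.75 ± 0.10, of Notch1 by -0.88 ± 0.17 and of C3 by -2.12 ± 0.36. Among genes of sterol synthesis and its control, the change was -1.35 ± 0.23 for Hmgcs1, -1.02 ± 0.18 for Fdft1, -0.88 ± 0.17 for Hsd17b7, -1.08 ± 0.21 for Insig1, -0.76 ± 0.15 for Sqle and -0.94 ± 0.19 for Lss.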

How the results depend on the processing

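The difference of Stk11 kept its direction and the counts of genes higher and of genes lower each stayed within 1.5 times of the reported values under all 15 alternatives listed in the methods and without both libraries numbered 1. The balance of the counts did not keep its direction: more genes were lower than higher under the 4 alternatives given in the report and without both libraries numbered 1 (4334 higher and 4488 lower). Over the libraries left out in turn, 4577 to 4939 genes were higher and 4189 to 4840 lower. The number of genes whose difference changed with IL-1β was less stable. Against 43 reported, it was 76 with upper quartile scaling, 347 with no filter on low counts, 70 with at least 10 counts in every library, 121 with DESeq2 and 70 with only the groups compared, and 23 to 41 when a library was left out, the lowest without Lkb1-/- library 2 or 3. The cause was not tested.

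With the replicate number as a block, 311 such genes were called and 6018 genes were higher and 5257 lower untreated. Besides the counts and genes given with it in the report, the block changed no call of a gene named with a fold change.

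Of 204 genes called and named with a fold change, 200 kept their direction and stayed called under every alternative run that could test them, and the exceptions were Strada, Stradb, Hmgcs1 and Tbx3. Of 12 named with a fold change and not called, 3 were called in at least 1 alternative (Ccna2, Ccnd3 and Mtx2) and 7 changed sign in at least 1 while staying uncalled (Amotl2, Col16a1, Hoxa9, Ptgs2, Sqle, Stk3 and Timp2). Without strand, Irf7, Usp18 and Itga2 stayed called at -2.79, -2.16 and 3.49. Of the list counts in the report, nuclear oxidative phosphorylation genes higher went from 16 to 10 without strand, autophagy genes higher from 9 to 14, repair genes lower from 8 to 5, interleukin and TNF family ligands lower from 4 to 2 and unfolded protein response genes higher from 2 to 4 with upper quartile scaling, NRF2 targets higher from 8 to 13 with only the groups compared, and with no filter LKB1 complex genes lower from 5 to 3, chemokines lower from 1 to 3, imprinted genes lower from 2 to 4 and mitochondrially encoded genes lower from 0 to 4. CREB targets lower went from 2 to 1 with upper quartile scaling and to 3 with the replicate block, chemokines lower from 1 to 2 without strand, and mesenchymal transition factors lower from 1 to 2 without strand, with the newer quasi-likelihood method and with only the groups compared. The filter of 10 counts in every library by construction leaves out genes at 0 in a line, so lists lost members, and 184 genes were higher and 61 lower by more than 3 on the log2 scale under it, against 1278 and 298 reported. Depth limits what can be said of genes under 3 counts per library.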
